A study of Mus musculus with 686 samples.

Results

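Thymus was compared with spleen in mice that stayed on the ground. The comparison took every thymus and spleen library of both ground control arms of LAR (Live Animal Return), which made 35 of the 686 libraries of the series, 20 of thymus and 15 of spleen. It was repeated in the 35 ground libraries of TERM (terminated at the time of the mice on the ISS), 18 of thymus and 17 of spleen, which came from other mice. Libraries entered by their labels alone (tissue, arm and extraction), so no measured value chose them, except where pools are left out as described below. Small RNA was sequenced and counted in 7 classes: lncRNA, miRNA, piRNA, rRNA, snRNA, snoRNA and tRNA.

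All mice were female BALB/cAnNTac of 3 or 8 months with no engineered allele named, and all were fed the same food bars. Anaesthesia before death differed between the extractions: it was ketamine, xylazine and acepromazine in TERM, and in LAR gas by the labels but ketamine and xylazine by the methods of the study. The habitat ground control (HGC) was housed in flight hardware under the conditions recorded in orbit, and the vivarium ground control (VGC) in standard cages. In LAR, spleen came from 6 HGC mice (3 of each age) and 9 VGC mice (4 of 3 months, 5 of 8 months), and thymus from 10 mice of each arm (5 of each age). In TERM, spleen came from 9 HGC and 8 VGC mice and thymus from 9 mice of each arm. TERM spleen was taken fresh into RNAlater whereas TERM thymus was dissected from thawed carcasses, so in TERM the tissue and the preservation cannot be told apart.

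Some libraries did not match their labels. Libraries were pooled for sequencing in 44 pools, and 11 of these pools held tissue mix-ups. These 11 were marked because libraries in them carried another tissue's profile, so leaving them out is a choice by measured values. Values below are of all libraries unless they are said to be without the pools. Outside the 11 pools, 27 of 27 LAR libraries had an miRNA profile closest to their own tissue among 13 tissues. Inside them only 3 of 8 did: of the libraries labelled thymus, 1 each was closest to spleen, brain and kidney, and of those labelled spleen, 1 each was closest to brown fat and lung. The library closest to brain, of VGC mouse 2, matched weakly (r = 0.313 to brain and 0.237 to thymus). It held 85909 counts of miR-181a-5p and 5841 of miR-205-5p per 1000000 miRNA counts. In TERM, 23 of 24 libraries outside the pools and 5 of 11 inside matched, the exception outside being a library labelled thymus of HGC mouse 14 that was closest to lung. The profiles of the 13 tissues came from ground LAR libraries outside the pools. The contrast between libraries inside and outside the pools was thus largely set in advance, and nothing is read from it. Without the 11 pools LAR kept 16 thymus and 11 spleen libraries, and TERM 13 and 11. The LAR libraries held 24.6 to 87.1 M counts over the 7 classes (1 M is 1000000) and 1.06 to 8.32 M miRNA counts, so that 3 counts, the upper limit of a count of 0, were worth 0.36 to 2.84 per 1000000 miRNA counts. Such limits cover counting error only.

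The thymus is where T cells form: precursors from the bone marrow divide, rearrange their receptor genes and are selected on a mesh of epithelial cells. The spleen filters blood, clears old red cells and holds mature T and B cells together with macrophages, granulocytes and, in mice, red cell precursors. MicroRNAs are short RNAs that pair with messenger RNAs through a seed near their 5′ end and lower the output of those messengers, and miRNAs with one seed share predicted targets. miR-181a is known for setting the sensitivity of the T cell receptor in developing thymocytes, miR-150 for its high level in mature lymphocytes, and miR-223 as a miRNA of granulocytes and other myeloid cells.

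The mature sequences below carry the comparison, since they show which differing miRNAs share a seed and which close relatives were not called. They were read from RefSeq (GRCm38.p6), 5′ to 3′, with the seed (bases 2 to 8) in capitals. RefSeq held 119 of the 138 listed or named miRNAs and 819 of the 1001 tested. First come the miR-181 family, where 3 of 4 members were called higher in thymus (miR-181c-5p was not), and miR-205-5p, which shared its seed with none of the other tested miRNAs whose sequence RefSeq held.
miR-181a-5p: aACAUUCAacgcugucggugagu
miR-181b-5p: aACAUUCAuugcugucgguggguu
miR-181c-5p: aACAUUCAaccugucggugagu
miR-181d-5p: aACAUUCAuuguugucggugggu
miR-205-5p: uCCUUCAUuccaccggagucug

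miR-181a-5p lies at chr1:137966468-137966490 and miR-181b-5p at chr1:137966650-137966673, both on the plus strand, each with a second copy elsewhere. miR-181c-5p and miR-181d-5p lie together on chromosome 8. miR-205-5p lies at chr1:193507503-193507524 on the minus strand. The AAAGUGC seed is shown because its 6 members come from 3 related gene clusters: miR-20b-5p and miR-106a-5p, from the miR-106a-363 cluster on chromosome X, were called higher in thymus, and the other 4, from chromosomes 14 and 5, were not.
miR-20b-5p: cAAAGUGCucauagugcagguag
miR-106a-5p: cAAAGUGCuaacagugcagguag
miR-17-5p: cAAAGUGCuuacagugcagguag
miR-20a-5p: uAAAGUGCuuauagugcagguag
miR-93-5p: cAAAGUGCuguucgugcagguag
miR-106b-5p: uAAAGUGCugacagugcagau

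The AUUGCAC seed had 5 members tested, which did not move one way. miR-363-3p (chromosome X) was called higher in thymus, and miR-92a-3p (1 of its 2 copies on chromosome 14) and miR-25-3p (chromosome 5) were not called. miR-32-5p was called higher in spleen (-1.25, and -1.73 without the pools). miR-92b-3p was called higher in thymus without the pools (2.10) and not with all libraries (0.34, adjusted p = 0.728).
miR-363-3p: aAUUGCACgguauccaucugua
miR-92a-3p: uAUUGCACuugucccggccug
miR-25-3p: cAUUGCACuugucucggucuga
miR-32-5p: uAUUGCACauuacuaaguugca
miR-92b-3p: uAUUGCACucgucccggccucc

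The miR-200 family of epithelial cells has 2 seeds that differ by 1 base, and all 5 members were called higher in thymus.
miR-200a-3p: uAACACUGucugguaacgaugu
miR-141-3p: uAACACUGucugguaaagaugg
miR-200b-3p: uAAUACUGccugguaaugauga
miR-200c-3p: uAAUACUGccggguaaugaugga
miR-429-3p: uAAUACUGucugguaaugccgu

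Of the miRNAs higher in spleen, miR-146a-5p is shown with miR-146b-5p, which has its seed, and miR-195a-5p with miR-15a-5p, miR-16-5p and miR-497a-5p, 3 of the 5 others tested with its seed. miR-146b-5p was not called with all libraries (-0.86) and was called without the pools (-1.17). miR-497a-5p was called higher in spleen too (-1.16), and miR-15a-5p (-0.18) and miR-16-5p (-0.14) were not.
miR-223-3p: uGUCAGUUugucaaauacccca
miR-146a-5p: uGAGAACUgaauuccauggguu
miR-146b-5p: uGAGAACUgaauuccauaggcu
miR-195a-5p: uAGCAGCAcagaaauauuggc
miR-15a-5p: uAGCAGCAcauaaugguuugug
miR-16-5p: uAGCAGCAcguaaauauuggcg
miR-497a-5p: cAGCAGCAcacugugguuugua
miR-511-3p: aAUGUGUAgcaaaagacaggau

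Levels below are in rpmm, counts per 1000000 miRNA counts of a library, and a difference is the log2 fold change of thymus over spleen, positive where thymus was higher. Calls needed an adjusted p under 0.05 in edgeR's quasi-likelihood test (Benjamini-Hochberg, over the class) and a log2 fold change beyond 1. Every adjusted p of a single RNA below comes from that test. In these bulk samples, fewer cells of a type and less RNA per cell cannot be told apart.

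The 3 marker miRNAs matched the labels. miR-181a-5p ranged from 23849 to 411778 rpmm in thymus (median 196498, n = 20) and from 5000 to 64728 in spleen (median 19655, n = 15). The ranges overlapped in all LAR libraries, while without the 11 pools thymus began at 64151 and spleen ended at 31695. The difference was 3.16 (SE 0.339, adjusted p = 4.19e-09), or 8.94-fold, and 3.59 (SE 0.258) without the pools. It made miR-181a-5p the source of 19.6% of the median thymus library's miRNA counts against 1.97% in spleen.

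miR-150-5p ran the other way, from 638 to 52380 rpmm in thymus (median 12780) against 3813 to 146900 in spleen (median 43201). The groups overlapped with all libraries and also without the 11 pools, where thymus reached 41962 and spleen began at 18471. The difference was -1.49 (SE 0.382, adjusted p = 0.00331), and -1.56 (SE 0.265) without the pools. miR-223-3p had 264 to 7989 rpmm in thymus (median 796) and 276 to 11195 in spleen (median 5575). Its highest thymus value belonged to the library labelled thymus that was closest to spleen, and without the pools the groups lay apart, thymus ending at 1566 and spleen beginning at 2028. The difference was -2.12 (SE 0.394, adjusted p = 0.000101), and -2.85 (SE 0.219) without the pools.

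**Figure D1:**
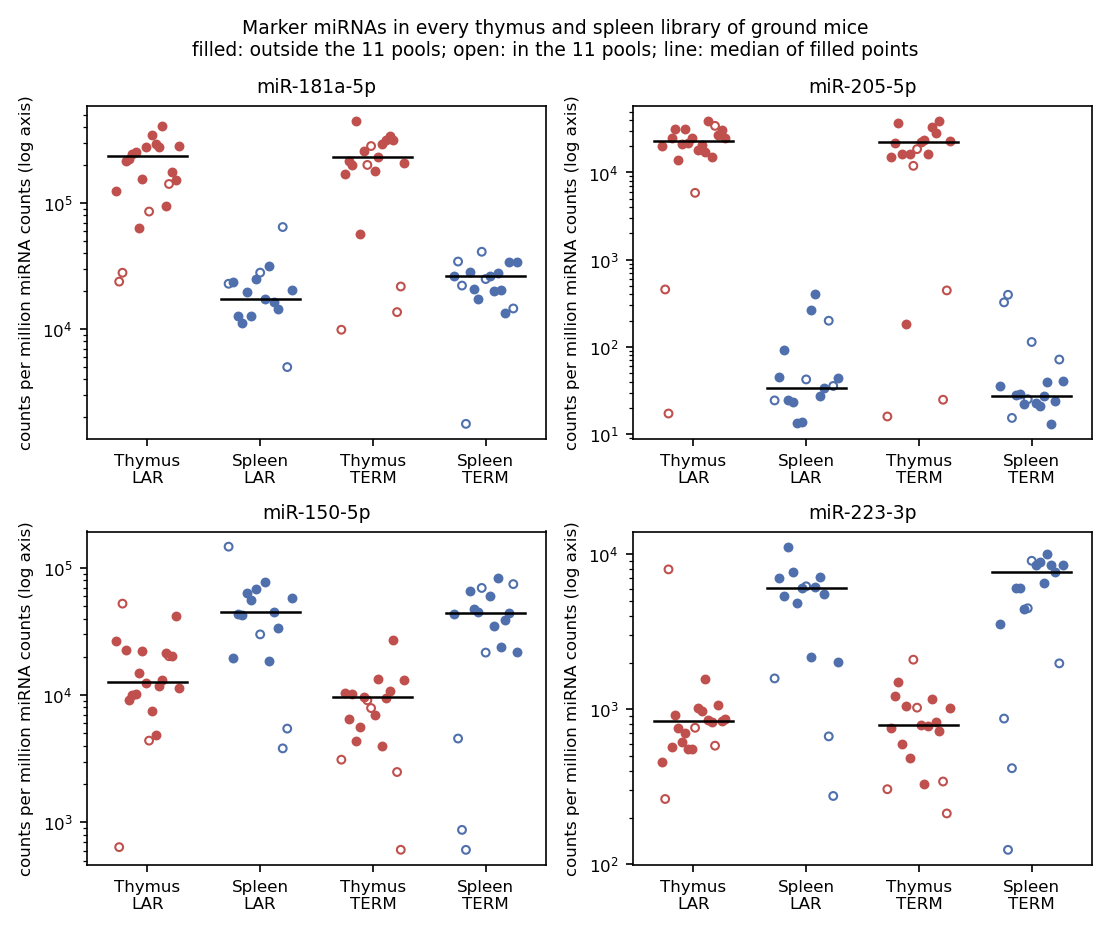
miR-181a-5p, miR-205-5p, miR-150-5p and miR-223-3p in each library, in rpmm on a log axis, for thymus and spleen of LAR and TERM; open points are libraries of the 11 pools with tissue mix-ups and filled points the rest. Filled points of thymus and spleen lay apart for miR-181a-5p, miR-205-5p and miR-223-3p in both LAR and TERM and overlapped for miR-150-5p, where LAR thymus reached 41962 and LAR spleen began at 18471.

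The same order held in the mice of TERM. Without the 11 pools, miR-181a-5p ranged from 56800 to 452671 rpmm in thymus and from 13411 to 34219 in spleen, and the groups lay apart (difference 3.35, adjusted p = 6.49e-12). The 56800 belonged to the library labelled thymus of HGC mouse 14, which was closest to lung. miR-223-3p also lay apart, at 331 to 1500 in thymus against 3537 to 9966 in spleen (difference -3.05). miR-150-5p overlapped again, with medians of 9613 and 44511 (difference -2.19, adjusted p = 1.65e-07).

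Over all miRNAs, 160 of 1001 tested (16.0%) were called in LAR, 96 higher in thymus (9.59%) and 64 higher in spleen (6.39%). Without the 11 pools 295 of 938 (31.4%) were called, 151 higher in thymus (16.1%) and 144 in spleen (15.4%). The calls shared between both fits numbered 151, all in the same direction, which was 94.4% of the first list and 51.2% of the second. With trimmed mean (TMM) scaling the split without the pools was 174 against 122, and the median over all miRNAs moved from -0.07 to 0.06, so differences near 0 depended on the scaling. Of the LAR calls, 154 of 159 tested in TERM had the same direction there, and 107 were called; over all 941 miRNAs tested in both, 74.2% had the same direction. 1 LAR call was called in the opposite direction in TERM. TERM itself had 240 of 1035 miRNAs called (23.2%), 134 higher in thymus (12.9%) and 106 in spleen (10.2%), and without the pools 284 of 927 (30.6%), 174 in thymus (18.8%) and 110 in spleen (11.9%).

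The separation was also counted as miRNAs whose thymus and spleen libraries did not overlap at all. With all LAR libraries 1 miRNA lay apart with thymus higher (0.0999%) and 0 with spleen higher, and without the pools 30 (3.2%) and 31 (3.3%) did. In TERM 0 lay apart with all libraries, and 26 (2.8%) and 15 (1.62%) without the pools. Of the 20 abundant miRNAs with the widest differences described next, with at least 100 rpmm in the higher tissue, 15 were among those. They were picked for wide called differences in these same libraries, so nothing is read from that count.

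The widest difference of all belonged to miR-205-5p, a miRNA of stratified and glandular epithelium. It ranged from 17.2 to 39175 rpmm in thymus (median 21408) and from 13.3 to 406 in spleen (median 35.7), and the lowest thymus value was again the library closest to spleen. Without the pools thymus began at 13963, above every spleen library. The difference was 7.94 (SE 0.718, adjusted p = 6.67e-11), or 245-fold. In TERM without the pools it was 9.68 (SE 0.546), although the library labelled thymus of HGC mouse 14 had only 182 rpmm.

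Most of the miR-181 family was called higher in thymus. Of its 10 members, 8 were called higher in thymus and 0 in spleen, with a median difference of 1.84 against 0.12 over all miRNAs, and 8 of 10 again without the pools and 9 of 10 in TERM without them. The shares of all miRNAs called higher in thymus in the same fits were 9.59%, 16.1% and 18.8%. The summed family took 224157 rpmm in the median thymus library and 23225 in the median spleen library. miR-181b-5p had medians of 28404 and 2135 rpmm (difference 3.51, SE 0.313), and miR-181a-1-3p, the passenger strand of one miR-181a copy, 1326 and 100.3 (difference 3.80, SE 0.371). miR-181d-5p was lower in level, 620 against 167 rpmm, and was called at 1.75 (SE 0.26). miR-181c-5p, at 1845 against 1074 rpmm, had a difference of 0.80 (SE 0.243, adjusted p = 0.0126), below the fold threshold. The lncRNA class held a transcript named Mir181a-1hg with medians of 26798 and 1913 per 1000000 lncRNA counts. Its counts were 1.03 to 1.28 times those of miR-181b-5p in thymus libraries and 1.17 to 1.56 times in spleen libraries, so it was not a measurement independent of the miRNA.

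The clusters related to miR-17-92, which promote growth and survival of lymphocytes, separated by cluster. All 10 members of the miR-106a-363 cluster on chromosome X were called higher in thymus, with differences of 2.16 to 4.31 and a median of 3.13. Among all miRNAs 9.59% were called higher in thymus. Of the 10 miRNAs assigned to miR-17-92 itself, 1 was called (miR-18a-3p, 1.02), with a range of -0.39 to 1.02, and of the 6 of miR-106b-25, 1 (miR-25-5p, 1.10). Without the pools these counts were 0 and 1. The other 2 listed, miR-19b-3p and miR-92a-3p, have the same mature sequence in both of the first 2 clusters, cannot be assigned to one of them, and were not called in LAR. In TERM without the pools miR-92a-3p was called higher in thymus (1.51).

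Within the X-linked cluster, miR-20b-5p had medians of 1712 and 352 rpmm in thymus and spleen (difference 2.49, SE 0.405, adjusted p = 1.52e-05). miR-363-3p had 428 and 57.8 (3.12, SE 0.401), miR-106a-5p 1074 and 245 (2.40, SE 0.405), and miR-20b-3p 109.5 and 10.2 (3.15, SE 0.483). By contrast miR-17-5p, with the seed of miR-20b-5p and miR-106a-5p, had 4570 and 4031 (0.23, SE 0.235, adjusted p = 0.521). The summed cluster reached 3366 rpmm in the median thymus library against 682 in spleen, while summed miR-17-92 reached 8575 against 9950. In TERM without the pools the 10 members of miR-106a-363 were called again, with a median of 3.42.

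**Figure D2:**
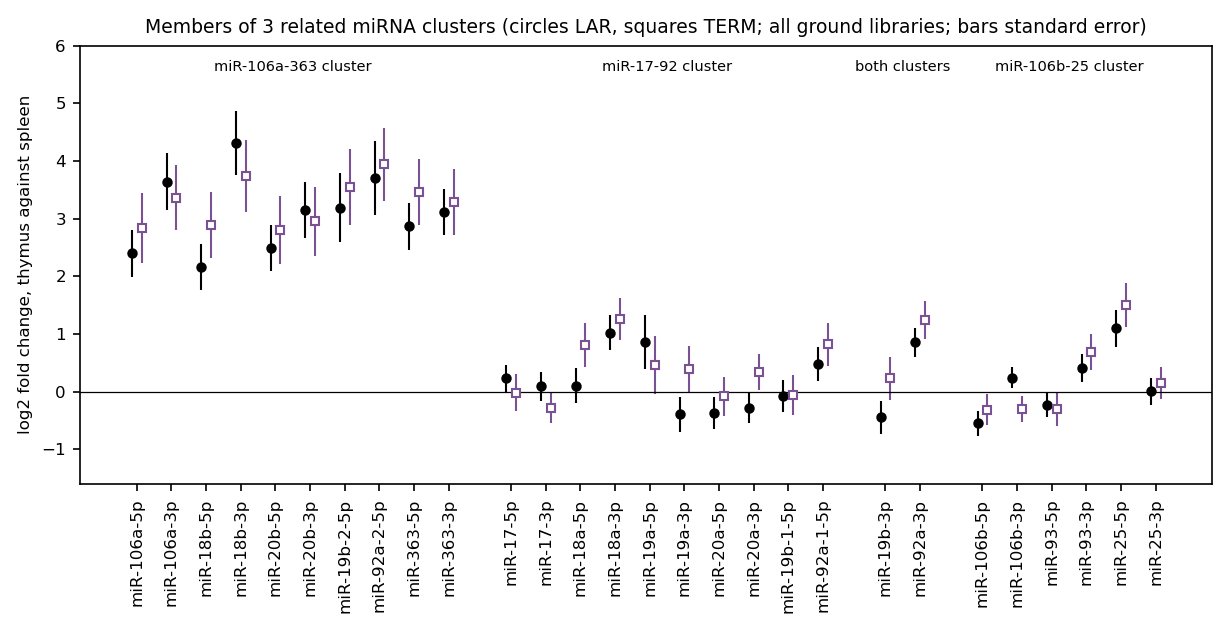
Log2 fold change of thymus over spleen for the 28 listed members of the miR-106a-363, miR-17-92 and miR-106b-25 clusters, 2 of them mature sequences shared between clusters, with circles for LAR, squares for TERM (all libraries) and bars of 1 SE. The 10 members of miR-106a-363 sit between 2.16 and 4.31 in LAR, and those of miR-17-92 between -0.39 and 1.02.

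Epithelial miRNAs were called higher in thymus in most fits. Of all miRNAs, 9.59% were called higher in thymus in LAR, 16.1% without the pools and 18.8% in TERM without them. All 14 listed (miR-205, the miR-200 family, miR-203 and the miR-183 cluster) were called higher in thymus in LAR, again without the pools and again in TERM without the pools, with medians of 2.23, 2.72 and 3.43. The count was 9 in TERM with all libraries and 7 in LAR when libraries were scaled to the total of the 7 classes. Their summed level was 1337 to 50531 rpmm in thymus (median 35654) and 957 to 18396 in spleen (median 1171). miR-205-5p was most of it in thymus. Of the rest, miR-200c-3p had medians of 4452 and 560 (difference 1.82, SE 0.423), miR-429-3p 2216 and 93.0 (2.31, SE 0.679), miR-200a-3p 377 and 21.0 (2.47, SE 0.548) and miR-203-3p 899 and 156 (1.79, SE 0.311). miR-182-5p went from 1.80 with all libraries to 4.16 without the pools, and miR-200a-3p was not called in TERM with all libraries (1.63, adjusted p = 0.0576).

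Outside these families, miR-128-3p, abundant in neurons and in lymphoid precursors, had medians of 494 and 32.5 rpmm (difference 3.69, SE 0.423, adjusted p = 1.93e-08). miR-449a-5p, a miRNA of multiciliated cells with the seed of miR-34a, had 366 and 54.0 (2.54, SE 0.476). Both lay apart without the pools: miR-128-3p ended at 145 in spleen and began at 152 in thymus, and miR-449a-5p ended at 67.3 and began at 133.

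The mature lymphocyte miRNAs summed to a median of 105552 rpmm in LAR spleen and 101677 in TERM spleen, where red cell miRNAs summed to 88418 and 129241. Of 11 listed, 4 were called higher in spleen and 0 in thymus (median difference -0.84), 6 without the pools and 8 in TERM without them. The shares of all miRNAs called higher in spleen in the same fits were 6.39%, 15.4% and 11.9%. miR-146a-5p, which restrains inflammatory signalling, ranged from 499 to 12231 rpmm in thymus (median 1783) and from 171 to 20870 in spleen (median 12810). The groups lay apart once the pools were left out (difference -2.27, SE 0.362, adjusted p = 1.11e-05; -2.75 without the pools). miR-342-3p had medians of 1349 and 5768 (-1.82, SE 0.358). miR-155-5p, induced when lymphocytes are activated, had 2618 and 2863 and did not pass (-0.26, SE 0.309, adjusted p = 0.591), and the 3 members of the miR-29 family differed by -0.64 to -0.92, below the fold threshold.

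In LAR 6 of the 13 listed myeloid and red cell miRNAs were called, each higher in spleen. The share of all miRNAs called higher in spleen was 6.39% in LAR and 11.9% in TERM without the pools. Of 6 myeloid miRNAs, 4 were called higher in spleen and 0 in thymus (median -1.11): both arms of miR-223 and both of miR-21a, with miR-21a-5p at medians of 3466 and 7042 rpmm (-1.20, SE 0.313). miR-511-3p, made from an intron of the macrophage mannose receptor gene, was on no list and had medians of 15.9 and 215 (-2.67, SE 0.423, adjusted p = 1.03e-05). Of 7 red cell miRNAs, 2 were called, miR-144-3p (248 against 633 rpmm, -1.70, SE 0.385) and miR-144-5p (28.4 against 107, -1.50, SE 0.342). miR-451a, the most abundant of them, had 33505 against 87043 rpmm and stayed below the fold threshold (-0.94, SE 0.295, adjusted p = 0.0168), passing it without the pools (-1.32). All 7 were called higher in spleen in TERM without the pools. miR-142a-5p, made in all blood cell lineages, was called at -1.04 (SE 0.367) and miR-142a-3p was not (-0.76).

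The remaining abundant miRNAs of the spleen side were miR-340-5p, with medians of 121 and 644 rpmm (-1.93, SE 0.35), miR-362-3p with 29.9 and 118 (-1.89, SE 0.293), miR-326-3p with 41.1 and 139.9 (-1.62, SE 0.263) and miR-195a-5p with 672 and 2116 (-1.50, SE 0.219). Except miR-342-3p and both arms of miR-144, the named spleen miRNAs from miR-223-3p to miR-195a-5p did not overlap between tissues without the pools.

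Markers of other structures were counted beside the 16.0% called over all miRNAs with all libraries and the 31.4% without the pools. Of 12 endothelial and vascular miRNAs, 1 was called higher in thymus (miR-126b-3p, 1.94), of 13 mesenchymal and Hox-locus miRNAs 1 (miR-10b-5p, 452 against 47.5 rpmm, 1.62), and of 10 let-7 and miR-98 miRNAs 1 was called higher in spleen (let-7f-5p, 25996 against 47286, -1.06). Of 18 markers of other organs, 1 was called, the heart miRNA miR-208a-3p, with medians of 41.9 in thymus and 0.541 in spleen (4.82, SE 0.759, adjusted p = 9.92e-06). Without the pools 4 of the 18 were higher in thymus and 6 in spleen, and in TERM without the pools 8 and 0. Without the pools in LAR the calls in thymus and spleen were 2 and 1 of the 12 endothelial, 2 and 3 of the 13 mesenchymal and 0 and 2 of the 10 let-7 and miR-98 miRNAs. The muscle miRNA miR-133a-3p had medians of 5094 and 435 rpmm (0.68, adjusted p = 0.533; 2.02 without the pools). The 18 summed to 1916 to 99317 rpmm in thymus (median 10619) and 1761 to 77558 in spleen (median 2630). Their part in the thymus and spleen differences was not tested.

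**Figure D3:**
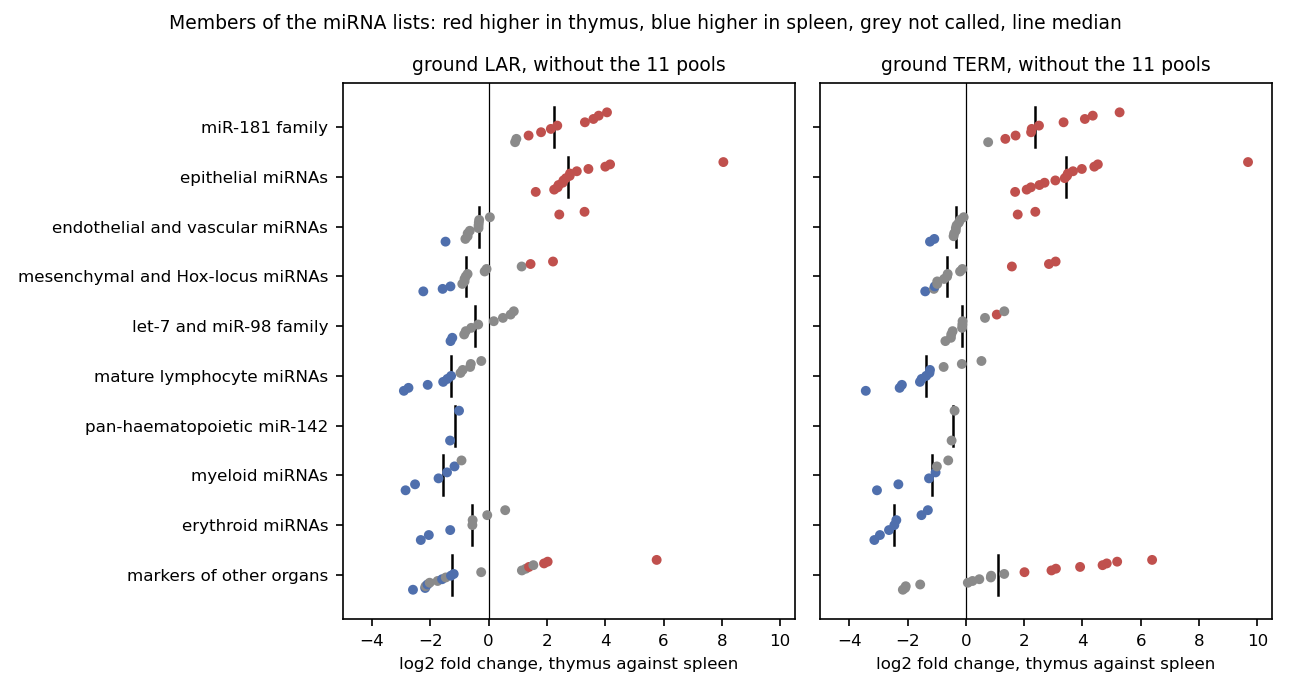
Log2 fold change of thymus over spleen for each member of 10 miRNA lists, in LAR and TERM without the 11 pools; red points were called higher in thymus, blue points higher in spleen, grey points were not called, and the line is the median of the list. All 14 epithelial miRNAs are red in LAR and TERM, no mature lymphocyte or myeloid miRNA is red, and the markers of other organs hold both colours in LAR.

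The place of both organs among the 13 tissues of the ground LAR mice was compared by median level without the 11 pools, as a description. Of the 10 named miRNAs higher in thymus, thymus ranked first for 8, among them miR-181a-5p (235174 rpmm, with brain next at 61357 and spleen in place 7), miR-181b-5p, miR-205-5p (fat under the skin next at 7918), miR-20b-5p, miR-363-3p and miR-449a-5p. For miR-20b-5p and miR-363-3p spleen came next after thymus. The other 2 were miR-128-3p, with brain first at 2367 rpmm and thymus next, and miR-200a-3p, with pancreas first at 3070.3 rpmm and thymus in place 5 at 373. Spleen ranked first for miR-150-5p, with thymus next, and for 7 of the 10 named by the width of their difference, among them miR-223-3p, miR-146a-5p, miR-511-3p, miR-342-3p and miR-340-5p. The other 3 were miR-362-3p (pancreas first, spleen next), miR-195a-5p (lung first at 2575 rpmm, spleen next at 2551) and miR-326-3p (brain first, spleen in place 3). For miR-451a spleen was first at 101294 rpmm and thymus in place 5.

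Age and housing were compared next. Within HGC, within VGC, at 3 months and at 8 months, without the pools, 20 of the 21 named miRNAs were called in all 4 subsets, and miR-200a-3p in 2. Apart from miR-150-5p they were named for wide called differences in these same libraries, so nothing is read from that count. Over all miRNAs 261 of 892 were called in HGC (29.3%), 221 of 866 in VGC (25.5%), 235 of 855 at 3 months (27.5%) and 277 of 889 at 8 months (31.2%). For miR-181a-5p the difference was 3.20 in HGC, 4.00 in VGC, 3.77 at 3 months and 3.36 at 8 months. The thymus medians without the pools were 281124 rpmm at 3 months (247596 to 350871, n = 7) and 155402 at 8 months (64151 to 411778, n = 9), with overlapping ranges. For miR-150-5p the thymus medians were 10115 and 21365. A change of the tissue difference with age was called for 12 of 1001 miRNAs (1.2%) and with housing for 18 (1.8%), and for 0 of the 21 named miRNAs (lowest adjusted p 0.251 for age and 0.553 for housing). Without the pools it was 0 for age (0.0%) and 8 for housing (0.853%), again with 0 of the 21 named. Between TERM and LAR it was called for 2 of 927 (0.216%), again 0 of the 21 named, and without the pools for 20 (2.32%), 1 of them named, miR-340-5p (1.37, adjusted p = 0.0338).

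In 8 LAR mice both tissues were sequenced. With the mouse as a block, and only these mice, 18 miRNAs were called in place of 160, 18 higher in thymus and 0 in spleen. Without the pools 3 such mice were left, and 46 miRNAs were called, 32 higher in thymus and 14 in spleen. In TERM 15 mice had both tissues, and the block fit called 197 of 1015 miRNAs, 97 higher in thymus and 100 in spleen. In the 8 LAR mice, of the 21 named, 5 were still called: miR-181a-5p (2.46, adjusted p = 0.0165), miR-181b-5p, miR-181a-1-3p, miR-205-5p and miR-200a-3p. miR-150-5p (-1.54, adjusted p = 0.407) and miR-223-3p (-1.71, adjusted p = 0.24) were not, and all 21 kept their direction.

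The classes of small RNA were compared as shares of the counts of a library, by a 2-sided permutation test over libraries with 100000 resamples and adjustment over the 7 classes. With all LAR libraries 0 of 7 shares passed after adjustment and 1 had an unadjusted p under 0.05. That was snoRNA, at 26.2% ± 7.32 (SD, n = 20) in thymus and 33.7% ± 10.6 (SD, n = 15) in spleen, with p = 0.0184 and adjusted p = 0.129. Without the pools snoRNA was 26.6% ± 6.27 against 37.8% ± 7.97 and tRNA was 17.3% ± 9.26 against 7.06% ± 3.16 (adjusted p = 0.00171 for each). The ranges overlapped for both. In TERM without the pools tRNA was 43.6% ± 14.0 in thymus and 6.47% ± 1.52 in spleen (adjusted p = 3.5e-05), and the groups lay apart. The library labelled thymus of HGC mouse 14, closest to lung, had the highest tRNA share (72.8%). In the same libraries snoRNA was 14.5% against 36.0% (adjusted p = 3.5e-05), miRNA 4.99% against 7.91% (adjusted p = 0.00084) and snRNA 15.5% against 23.9% (adjusted p = 0.00751). In the 8 LAR mice with both tissues, pools included, the mean difference within a mouse was 1.18 points for tRNA (exact sign-flip p = 0.898) and -3.91 points for snoRNA, which was lower in thymus in 6 of 8 (exact sign-flip p = 0.414), so neither passed when paired. In the 15 such TERM mice it was 26.7 points for tRNA, higher in thymus in 14 (exact sign-flip p = 0.000244), and -16.2 points for snoRNA, higher in thymus in 2 (exact sign-flip p = 0.000366). How much of the TERM difference belongs to the preservation cannot be told apart from the tissue.

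**Figure D4:**
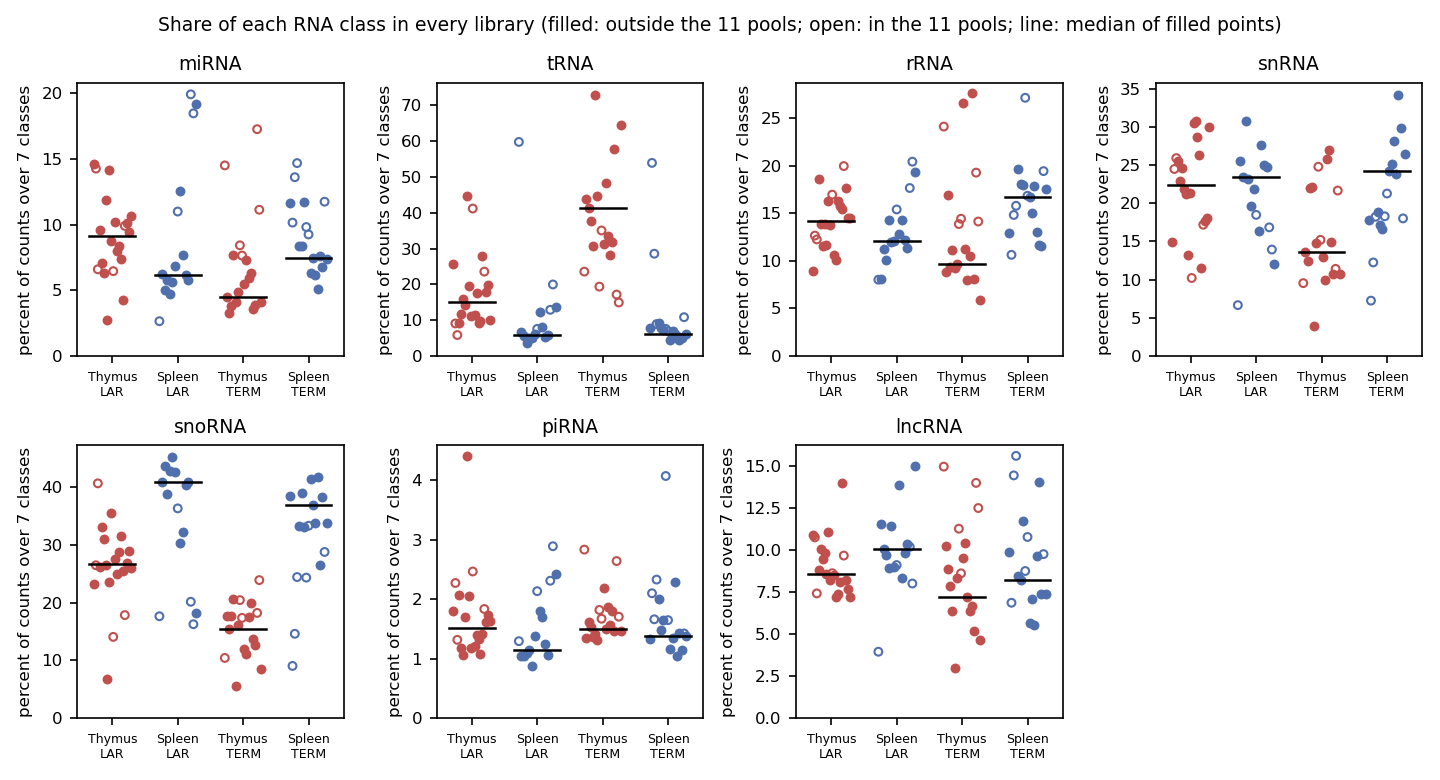
Share of each of the 7 small RNA classes in the counts of each library, in percent, for thymus and spleen of LAR and TERM; open points are libraries of the 11 pools. In TERM, filled thymus points for tRNA sit between 28.2% and 72.8%, above filled spleen points between 4.56% and 9.24%, while in LAR both tissues overlap. The 72.8% belongs to the library labelled thymus of HGC mouse 14, which was closest to lung.

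Within tRNA, which holds both whole transfer RNAs and their fragments, 51 of 406 features (12.6%) were called in LAR, 0 higher in thymus and 51 in spleen, and without the pools 110 (27.1%), 7 higher in thymus (1.72%) and 103 in spleen (25.4%). The direction rested on the scaling. Without the pools 52 were higher in thymus and 42 in spleen with TMM scaling, 45 and 42 with DESeq2, and 94 and 14 with libraries scaled to the total of the 7 classes, and the median difference over all tRNA features moved from -0.61 to -0.05, 0.01 and 0.42. With all libraries DESeq2 called 9 and 12, and TMM scaling 0 and 16.

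Copies of a tRNA gene share counts (408 features gave 224 distinct profiles), so features with identical counts were taken once and summed by amino acid; copies whose counts are shared but not identical still enter more than once. Reads of tRNA-Cys took 3.88% ± 1.09 of these tRNA counts in thymus and 1.96% ± 0.902 in spleen (SD, n = 20 and 15, permutation test, adjusted p = 0.00069 over 23 kinds). The other 9 kinds that passed were lower in thymus: tRNA-Arg (0.603% ± 0.369 against 1.43% ± 0.893, permutation adjusted p = 0.00261), tRNA-Asn (0.119% against 0.256%), tRNA-Ile (0.177% against 0.347%), tRNA-Lys (2.06% against 3.76%), tRNA-Leu (1.44% against 2.26%), tRNA-Met, tRNA-Thr, tRNA-Trp and suppressor tRNA. The 3 most abundant kinds did not pass. They were tRNA-Val (30.2% ± 6.28 against 30.3% ± 6.81), tRNA-Glu (24.7% ± 7.34 against 21.0% ± 4.99, permutation adjusted p = 0.177) and tRNA-Gly (24.1% ± 3.64 against 25.0% ± 6.37). Without the pools tRNA-Glu passed as higher in thymus (25.2% against 18.3%, permutation adjusted p = 0.00483) and tRNA-Gly as lower (24.0% against 27.5%, permutation adjusted p = 0.0395).

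In TERM without the pools the groups lay apart for tRNA-Cys, tRNA-Asn and tRNA-Ile in the same directions as in LAR, and for tRNA-Arg they overlapped, thymus reaching 1.01% and spleen beginning at 0.998%. The single features with the widest difference were copies of tRNA-Arg-ACG. tRNA-Arg-ACG-2-1 ranged from 23.5 to 807 per 1000000 tRNA counts in thymus (median 129) and from 37.0 to 2053 in spleen (median 530.5). The ranges overlapped, and the difference was -1.86 (SE 0.401, adjusted p = 0.000696), with -2.28 without the pools and -2.34 in TERM. With the mouse as a block 0 tRNA features were called in LAR, with all libraries as without the pools, and in TERM 284 of 407 were called, 277 of them higher in spleen. With TMM scaling and no block the TERM split was 76 higher in thymus and 80 in spleen, and 93 and 87 without the pools.

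**Figure D5:**
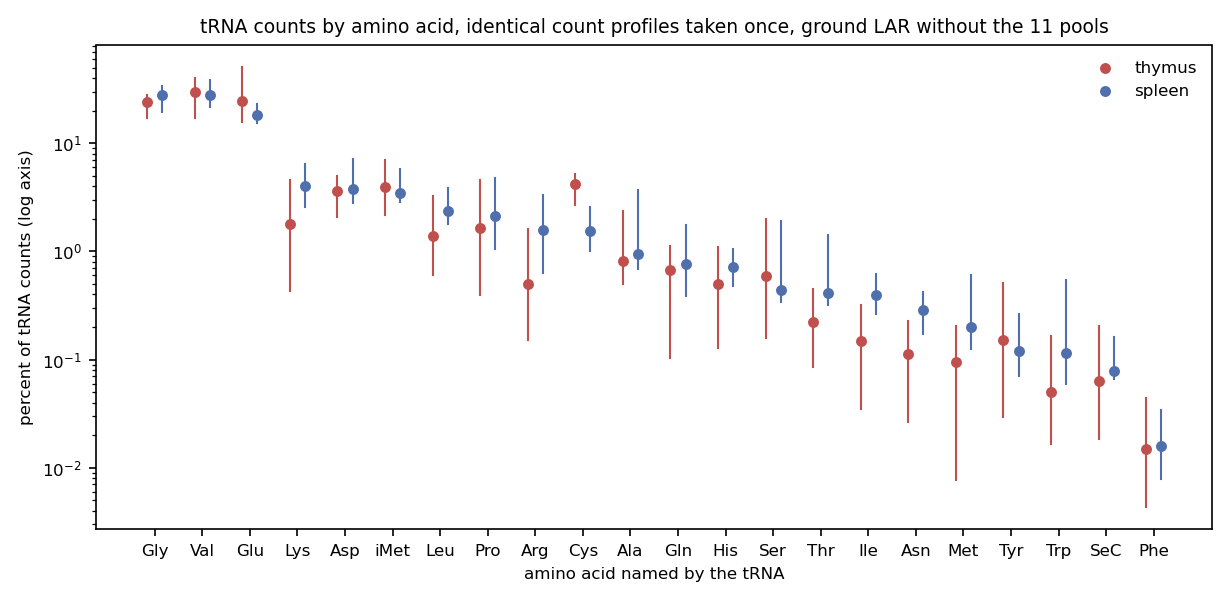
Share of tRNA counts by amino acid in LAR without the 11 pools, features with identical counts taken once, in percent on a log axis; points are medians of thymus (red) and spleen (blue) and lines run from the lowest to the highest library. For tRNA-Cys thymus lies above spleen (medians 4.22% and 1.54%), and for tRNA-Arg below it (0.497% and 1.57%).

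In rRNA and snRNA the calls came and went with the setting. For rRNA edgeR's test called 0 of 224 (0.0%), with 84 at an unadjusted p under 0.05, DESeq2 called 0 and the fit with the mouse as a block 1. Without the pools edgeR called 65 of 220 (29.5%), all higher in thymus, DESeq2 1 and edgeR with TMM scaling 18, and within HGC, VGC and mice of 3 months each 0, but within mice of 8 months 95 of 212, all higher in thymus. For snRNA edgeR called 0 of 832 (0.0%), with 106 at an unadjusted p under 0.05, and DESeq2 called 0. Scaled to their own class total and without the pools 3 were called (0.363%). Scaled to the total of the 7 classes 58 were called, and 25 without the pools, all higher in thymus. In TERM without the pools 88 of 267 rRNA features were called, 87 higher in thymus, and 286 of 829 snRNA features, 279 higher in thymus. With TMM scaling those TERM calls were 20, 17 higher in thymus, and 172, 160 higher in thymus. With the mouse as a block they were 0 and 196. Summed by kind, U11 of the minor spliceosome took 0.113% ± 0.0229 of snRNA counts in thymus and 0.0864% ± 0.0173 in spleen (n = 20 and 15, permutation adjusted p = 0.00672 over 8 kinds). It was the only kind that passed in LAR. In TERM it did not pass (0.119% against 0.102%, adjusted p = 0.0896). Features whose name gives no kind were counted as 1 kind. In LAR they held 89.8% of snRNA counts in thymus and 90.2% in spleen.

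For snoRNA, which guide the modification of ribosomal and spliceosomal RNA, 52 of 832 (6.25%) were called, 50 higher in thymus (6.01%) and 2 in spleen (0.24%). The direction of the calls rested on the scaling and on single libraries. Without the pools 265 of 808 (32.8%) were called, 149 higher in thymus (18.4%) and 116 in spleen (14.4%), and without the spleen library of VGC mouse 16 as well 298 and 5. Without the thymus library of HGC mouse 16 in its place the counts were 55 and 3, and with arm and age as terms and no library left out beyond the pools 70 and 7. With TMM scaling of all libraries the split was 11 against 17. Of the 115 spleen calls without the pools that were tested in TERM, 102 were called in the opposite direction there, where 401 of 861 were called without the pools (46.6%), 392 higher in thymus (45.5%) and 9 in spleen (1.05%). Snord17 was higher in spleen under every scaling, at medians of 1752 and 4164 per 1000000 snoRNA counts (-1.12, SE 0.194, adjusted p = 0.000142; -1.40 in TERM). Snord7 was higher in thymus, at 948 and 444 (1.14, SE 0.226; 1.15 in TERM), but without the pools the TERM difference was 0.93 and was not called. With the mouse as a block in LAR neither was called (-0.77 for Snord17 and 0.61 for Snord7, adjusted p = 0.509 for each).

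For piRNA, annotated sequences that in body tissues can overlap other small RNAs, 123 of 795 (15.5%) were called, 91 higher in thymus (11.4%) and 32 in spleen (4.03%), and without the pools 154 (20.2%), 106 in thymus (13.9%) and 48 in spleen (6.3%). With DESeq2 the split was 43 and 43, and without the pools 68 and 65; with TMM scaling it was 57 and 44. piR-130848 had medians of 661 and 3407 per 1000000 piRNA counts (-2.08, SE 0.349, adjusted p = 4.88e-05; -2.83 in TERM), and piR-104408 had 2209 and 11269 (-1.99, SE 0.338; -1.71 in TERM). Both were higher in spleen in LAR and TERM, but not called with the mouse as a block in LAR (-1.33 for each, adjusted p = 0.357 and 0.253). piR-15293 rested on 1 library: its thymus median was 517 per 1000000 and its highest value 26032, in HGC mouse 16, against a spleen median of 340. Its difference of 2.06 fell to 0.48 (adjusted p = 0.157) without the pools and that library, and that of piR-1100 from 1.73 to 0.32. oocyte_piRNA1088 (272 against 18.6 per 1000000, 2.00) was not called in TERM with all libraries (0.74) and was called there without the pools (2.41, adjusted p = 1.82e-08). For oocyte_piRNA1109 (1218 against 7275, -2.11) the TERM difference was likewise -0.85, not called, and -1.64 without the pools (adjusted p = 0.000286), and with the mouse as a block in LAR it was -0.57 (adjusted p = 0.981), not called.

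For lncRNA, 327 of 4026 transcripts (8.12%) were called, 250 higher in thymus (6.21%) and 77 in spleen (1.91%), but with TMM scaling 45 and 254. Without the pools 634 (16.6%) were called, 532 in thymus (13.9%) and 102 in spleen (2.67%), but with TMM scaling 116 and 293. Transcripts of 1 gene share reads. The widest difference was Mir205hg, the host of miR-205, with medians of 24208 and 24.5 per 1000000 lncRNA counts (7.87, SE 0.766). Its counts were 1 to 1.002 times those of miR-205-5p in thymus, so it repeated that miRNA. Of 144 listed lncRNA transcripts 124 were tested, with 8 called higher in thymus and 1 in spleen; without the pools it was 54 and 1 of 123, of which 43 were transcripts of Rian, a host of snoRNAs and miRNAs of an imprinted locus. With TMM scaling and no pools it was 34, 29 of them Rian, and 3, and in TERM without the pools 24 and 10 of 126. In TERM without the pools 2 Rian transcripts were higher in thymus and 1 in spleen of 61 tested, where 1047 of 3804 lncRNA transcripts were called (27.5%), 996 higher in thymus (26.2%) and 51 in spleen (1.34%), but with TMM scaling 323, 199 and 124. A transcript of Snhg1, a host of snoRNAs, was higher in spleen at medians of 1622 and 3525 (-1.11, SE 0.217, adjusted p = 0.00164; -2.13 in TERM), and was not called with the mouse as a block (-1.25, adjusted p = 0.314). Mir17hg, the host of miR-17-92, had 20193 and 11409 per 1000000 and was not called (0.69, adjusted p = 0.0566).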

How the data were processed

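Small RNA libraries of 1 tissue of 1 mouse each were counted by the authors with miRMaster 2.0 on GRCm39. The deposited miRNA values are estimated counts (0.79% carry a fraction, rounded here), and those of the other 6 classes are whole read counts per feature, both without normalization, so multi-mapping reads and gene copies share counts. The circular RNA values were not used here. Each library was scaled to its own total of a class. Features with at least 5 counts in 10% of the libraries of any tissue and arm were tested with edgeR 4.0.16 (quasi-likelihood test, R 4.3.3), adjusted by Benjamini-Hochberg over the class, and called at an adjusted p under 0.05 with a log2 fold change beyond 1. Changes of the tissue difference with age, housing or extraction were interaction terms, called at an adjusted p under 0.05. Shares were compared with permutation tests (100000 resamples, smallest p 1e-05; Python 3.11.15, scipy 1.17.1). p-values measure the spread between libraries, taken as independent though some mice gave both tissues, except in sign-flip tests and fits with the mouse as a block. With all libraries that spread includes libraries that match another tissue. The edgeR fit was tested on simulated data.

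Named miRNAs were the 3 markers and, in each direction, the 10 with the widest difference among those called with and without the 11 pools at a median of at least 100 rpmm (counts per 1000000 counts of the class) in the higher tissue (3 per direction in other classes, 5 per interaction). miR-511-3p, miR-128-3p and the others outside the lists came in by this rule. miR-15a-5p, miR-16-5p, miR-32-5p, miR-92b-3p, miR-146b-5p and miR-497a-5p are shown for their seeds, chosen after their values were seen. The members and lists were chosen with earlier results of these data known. Alternatives were TMM scaling, the total over the 7 classes, DESeq2 1.42.0, other filters, arm and age or plate as terms, a rank test and leaving out libraries. The same mouse number in an arm and extraction is 1 animal, so numbers pair the tissues. Deviations of both tissues from their group means correlated at -0.295 to 0.531 (median 0.269) over 8 LAR mice and -0.376 to 0.442 (median 0.0119) over 15 TERM mice. Without the pools the medians were 0.0380 over 3 LAR mice and 0.122 over 7 TERM mice, so the correlations alone do not show the pairing. No 2 libraries were identical (highest r 0.986).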

Additional observations from a re-analysis of the deposited data

Results flagged for a closer look

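Of 80 groups of libraries tested for a single far value in a class share or a marker miRNA, 18 held one, where chance gives about 1 in 20, and 15 of the 18 values were libraries of the 11 pools. In LAR, the library labelled thymus of HGC mouse 13 was highest for miR-223-3p at 12.96 on the log2 scale (the others 8.85 to 10.06), and the library labelled spleen of HGC mouse 16 lowest at 8.11 (the others 10.99 to 12.58). Thymus of VGC mouse 2 was highest for tRNA at 41.2%, and spleen of VGC mouse 13 was highest for tRNA at 59.8% and lowest for lncRNA at 3.96%. Outside the pools, thymus of HGC mouse 16 was lowest for snoRNA at 6.79% (the others 23.2% to 40.6%) and highest for piRNA at 4.41% (the others 1.06% to 2.06%), and spleen of HGC mouse 13 was highest for lncRNA at 15.0%.

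In TERM all such values were in the pools. Thymus of HGC mouse 11 was highest for miRNA at 17.3% and piRNA at 2.64%, and thymus of VGC mouse 5 lowest for miR-150-5p at 9.25 on the log2 scale. Spleen of HGC mouse 13 was lowest for miR-150-5p at 9.77 and miR-223-3p at 6.96 and highest for tRNA at 28.6%. Spleen of HGC mouse 1 was highest for rRNA at 27.1% and piRNA at 4.07%. Spleen of VGC mouse 4 was lowest for miR-181a-5p at 10.79, and spleen of VGC mouse 13 highest for tRNA at 53.9%.

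Some miRNAs had a tissue difference that changed with another factor by edgeR's interaction test with Benjamini-Hochberg adjustment, given as log2 differences of 8 against 3 months, HGC against VGC, or TERM against LAR. With age these were miR-219a-2-3p (-10.71) and miR-206-3p (-7.88), both at an adjusted p of 0.0217, and miR-200c-3p (2.69), miR-124-3p (-7.53) and miR-3099-3p (-6.78), each at 0.041. Without the 11 pools none of these 5 passed, and the adjusted p ran from 0.175 to 0.431. With housing they were miR-192-3p (-4.88), miR-6969-3p (-11.13), miR-6969-5p (-10.01), miR-217-5p (-8.94) and miR-802-5p (-7.87), each at 0.00703. Without the pools miR-192-3p no longer passed (-2.96, adjusted p = 0.052) and the other 4 did. The LAR group medians of miR-6969-3p and miR-6969-5p were at most 0.364 rpmm, and 0.498 without the pools, near the lower end of the 0.36 to 2.84 rpmm that 3 counts are worth. Those of miR-219a-2-3p (at most 1.17 rpmm) and miR-3099-3p (at most 1.72) lay within or below that range too, and those of miR-217-5p reached 2.87. Between extractions, miR-12191-3p (3.08, adjusted p = 2.28e-06) had medians of 4.96 rpmm in thymus and 12.0 in spleen in LAR and of 6.48 and 1.71 in TERM, and passed without the pools (3.35). miR-499-5p (4.43, adjusted p = 0.0411) did not (2.17, adjusted p = 0.0828).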

How the results depend on the processing

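Counts of called features moved by more than 1.5 times as follows, and the cause was not tested. S16 (spleen of VGC mouse 16), T16 (thymus of HGC mouse 16) and T14 (TERM thymus of HGC mouse 14) stand for fits without that library, every setting given with pools out comes on top of leaving out the 11 pools, and the replicate block is the mouse. For miRNA the 160 became 18 with the block, 246 with the plate as a term and 86 with the rank test, and with pools out 295, then 296 (TMM), 287 (DESeq2), 282 (arm and age), 249 (total over 7 classes), 46 (block), 261 (HGC), 277 (8 months), 315 (S16) and 285 (T16). For tRNA the 51 became 16 (TMM), 0 (total over 7 classes), 21 (DESeq2), 0 (block) and 94 (plate), and with pools out 110, then 94 (TMM), 111 (arm and age), 107 (edgeR's own filter), 87 (DESeq2), 108 (total), 0 (block), 146 (HGC), 157 (3 months), 104 (8 months), 107 (S16) and 110 (T16), and TERM had 156 (TMM) and, pools out, 180 (TMM). For rRNA the 0 became 1 (block), and with pools out 65, then 18 (TMM), 57 (arm and age), 57 (own filter), 1 (DESeq2), 70 (total), 66 (block), 95 (8 months), 89 (S16) and 48 (T16), and TERM had 14 (TMM), 0 (block) and, pools out, 88, 0 (block) and 83 (T14). For snRNA the 0 became 58 (total), and with pools out 3, then 16 (TMM), 7 (arm and age), 1 (own filter), 25 (total), 56 (block), 22 (8 months), 17 (S16) and 3 (T16), and TERM had, pools out, 286, 172 (TMM), 196 (block) and 279 (T14). For snoRNA the 52 became 28 (TMM), 19 (total), 166 (DESeq2), 24 (own filter), 0 (block) and 34 (arm and age), and with pools out 265, then 211 (TMM), 176 (own filter), 207 (DESeq2), 217 (total), 0 (block), 227 (HGC), 21 (VGC), 169 (3 months), 92 (8 months) and 303 (S16), but 77 (arm and age) and 58 (T16), and TERM had, pools out, 238 (block). For piRNA the 123 became 55 (own filter) and 14 (block), and with pools out 78 (own filter), 1 (block), 33 (HGC) and 48 (3 months), and TERM had, pools out, 236 (T14). For lncRNA the 327 became 670 (no filter), 194 (own filter) and 2 (block), and with pools out 634, then 581 (arm and age), 21 (block), 52 (HGC), 555 (VGC), 692 (S16) and 518 (T16), and TERM had 165 (TMM), 109 (block) and, pools out, 1047 and 994 (T14). Changes of the tissue difference numbered 26 (DESeq2) with age, and with pools out 0, 0 (TMM) and 2 (DESeq2); 7 (DESeq2) with housing, and with pools out 8 and 9 (DESeq2); and 4 (TMM) and 10 (DESeq2) between extractions, and with pools out 20, 25 (TMM), 28 (DESeq2) and 44 (T14). Without the pools the differences in share were 10.2 points for tRNA and -11.2 for snoRNA. Most named features were picked for wide called differences in the same LAR libraries, so nothing is read from how many refits kept the call. Named miRNAs kept direction and call in 437 of 462 refits and only direction in 25. Named features of other classes did so in 312 and 64 of 378, and 2 reversed: piR-15293 (-0.30, adjusted p = 0.667) and piR-1100 (-0.058, adjusted p = 0.949) in mice of 3 months without the pools. Fits without the pools combined with another choice were chosen after seeing the data, and left 3 LAR mice for the block. Depth limits features near 3 counts.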
